A study of Mus musculus with 2 samples.

Results

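The 10 genes described here are the AP-1 subunits and early response factors *Jun*, *Junb*, *Jund*, *Fos*, *Fosb*, *Fosl2*, *Atf3*, *Klf6*, *Ier2* and *Ier3*. They were taken by symbol from the 32285 genes of the deposited count matrices, each of which held all 10. Gene expression was measured by 3′ single-nucleus RNA-seq (snRNA-seq) on the 10x platform, using livers from C57BL6/J males given a diet that induces metabolic dysfunction-associated steatohepatitis (MASH) for 5 months from 10 to 12 weeks of age, with 40% of energy from fat, 20% from fructose and 2% cholesterol. There were 2 libraries, the library labelled Flox (*Themis* flox/flox) and the library labelled HKO (*Themis* Alb-Cre, in which the albumin promoter drives Cre in hepatocytes). The state of the allele in other cells was not examined. Each library pooled tissue of more than 1 mouse before the isolation of nuclei, and each group had 1 library. Hence no value below has a replicate check, no test between genotypes was possible, and genotype and preparation cannot be told apart.

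AP-1 is a dimer of basic leucine zipper proteins. JUN proteins pair with each other or with FOS and ATF proteins, and the composition of the dimer sets which sites it binds and whether it activates or restrains them. Most genes of the group are early response genes, transcribed from existing factors soon after a growth factor, cytokine or stress signal reaches the nucleus through ERK, JNK and p38 kinases. Their transcripts are short-lived, and several also respond when tissue is handled, which is why each member was followed in every cell type. In the liver the group is known from regeneration, the acute phase response and steatohepatitis.

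Promoter sequences are shown for *Jun*, *Junb*, *Klf6* and *Ier3*, chosen after their hepatocyte values were seen, because the account below turns on them. Each line gives the 150 bases before the RefSeq transcription start and the first 10 bases from it on GRCm38.p6, 5′ to 3′ on the strand of the gene. Capitals mark the letters GGGCGG (GC box, a site of KLF and SP proteins), TGACG (the core of a cyclic AMP response element), TGACATCA (the AP-1 variant site known from *Jun*) and TATAAA, on either strand, so that a GC box on the other strand reads CCGCCC.
*Jun* (chr4:95052213-95052372, minus strand): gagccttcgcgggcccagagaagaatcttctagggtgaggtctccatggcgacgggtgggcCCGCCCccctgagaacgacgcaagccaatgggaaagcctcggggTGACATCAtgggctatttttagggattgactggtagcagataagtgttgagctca
*Junb* (chr8:84978739-84978898, minus strand): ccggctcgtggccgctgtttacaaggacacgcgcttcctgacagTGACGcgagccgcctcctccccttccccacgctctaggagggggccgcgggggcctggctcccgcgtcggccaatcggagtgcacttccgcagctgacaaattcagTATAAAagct
*Klf6* (chr13:5861339-5861498, plus strand): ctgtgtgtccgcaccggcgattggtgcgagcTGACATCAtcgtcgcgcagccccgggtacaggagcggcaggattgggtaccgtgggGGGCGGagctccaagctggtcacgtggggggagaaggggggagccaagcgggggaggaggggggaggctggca
*Ier3* (chr17:35821563-35821722, plus strand): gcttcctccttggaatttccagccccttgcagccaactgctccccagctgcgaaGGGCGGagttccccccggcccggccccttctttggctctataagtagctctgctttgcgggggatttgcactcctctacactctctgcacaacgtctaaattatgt
Of the 10 members, 9 had a RefSeq promoter, *Ier2* being the exception. The windows searched ran over 300 bases, from 250 bases before the start. RefSeq starts can differ from the gene positions given below. The *Jund* window (chr8:70697489-70697788), which held none of the sites, ended before the position given for the gene, and the *Atf3* window lay inside it. TGACATCA stood in 2 of the 9, *Jun* and *Klf6*, against 3.62% of all 32851 promoters. The site is the one known from *Jun*, so that match was given in advance and only the one in *Klf6* was open. The GC box stood in 7 of the 9 against 35.7% of all promoters, TGACG in 4 against 20.8% and TATAAA in 2 (*Fos* and *Junb*) against 13.6%. TATAAA began at -33 from the RefSeq start in *Fos*, but at 0, the start itself, in *Junb*. No member's window held the full AP-1 site TGACTCA, the full element TGACGTCA, which contains TGACG, or the CArG box, which 5.20%, 1.79% and 1.63% of all promoters held. A match is a run of letters in this window and says nothing about binding.

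The depth of the libraries differed. After filtering there were 8659 nuclei in the library labelled Flox and 9801 in the one labelled HKO, with medians of 5959 and 1971 UMIs, and 27 barcodes occurred in both libraries. Types were told from clusters by markers, and each name stands for a resemblance. The hepatocyte cluster group held 5822 and 4474 nuclei, with median depths of 7458.5 and 5836.5 UMIs. With no integration the hepatocytes fell into 4 clusters, each nearly of 1 library (3219 and 17 nuclei, 102 and 2985, 2498 and 56, 7 and 1417), so every hepatocyte ratio below compares nuclei that clustered apart by library. The other types compared were cholangiocytes (135 and 547 nuclei), endothelial cells (787 and 1283), hepatic stellate cells (HSCs; 836 and 1195), macrophages (536 and 1425), T cells (157 and 299) and B cells (80 and 97). All defining markers of each type were detected in it in both libraries. The summed level of the 8 hepatocyte markers was 10160.4 and 8743 CPM (UMIs of a gene for each 1000000 UMIs of the summed nuclei) in hepatocytes, and still 1141 to 3823 CPM in the other types, where it was lower in the library labelled HKO in all 6 of them. RNA of hepatocytes was thus present in droplets of other types, and its part in their member levels was not tested. The 9 macrophage markers summed to 65.0 and 72.5 CPM in hepatocytes, against 7208 and 6015 CPM in macrophages. *Themis*, the targeted gene, was not lower in hepatocytes of the library labelled HKO. It was at 162 and 247 CPM, with a ratio of 1.52 (1.47 to 1.57), although 3′ counts summed per gene do not show whether a deleted exon was present. Directions are therefore given between the libraries as labelled.

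Values are CPM of a type, given with the library labelled Flox first. Ratios are those of the library labelled HKO over that labelled Flox. Ranges in parentheses are exact 95% intervals and cover counting error only. They treat UMIs as independent, which is not so where a few nuclei hold many UMIs of a gene (below). A pair of gene and type was counted as measured with at least 20 UMIs over both libraries, and as past the limit at 1.5-fold.

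In hepatocytes the members did not move together. *Klf6*, *Ier3* and *Atf3* were higher in the library labelled HKO, *Junb* and *Ier2* were lower, and *Jun*, *Jund*, *Fos*, *Fosb* and *Fosl2* stayed within 1.5-fold. That is 3 of 10 members past 1.5-fold higher, against 11.8% of the 14710 genes measured in hepatocytes, and 2 of 10 lower, against 13.4%. The median log2 ratio of the members was 0.14, beside -0.02 over all measured genes. Over the 7 types, 50 of the 70 pairs of member and type were measured. Of these, 6 were past 1.5-fold higher and 10 lower, while 10.2% and 14.7% of all measured pairs of gene and type were. With TMM factors for the totals the split was even, 8 higher and 8 lower. The share over all genes was not computed with those factors. No member passed 1.5-fold in the same direction in every type where it was measured. *Atf3* alone had a ratio above 1 in each, and it was measured in hepatocytes and macrophages only.

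**Figure D1:**
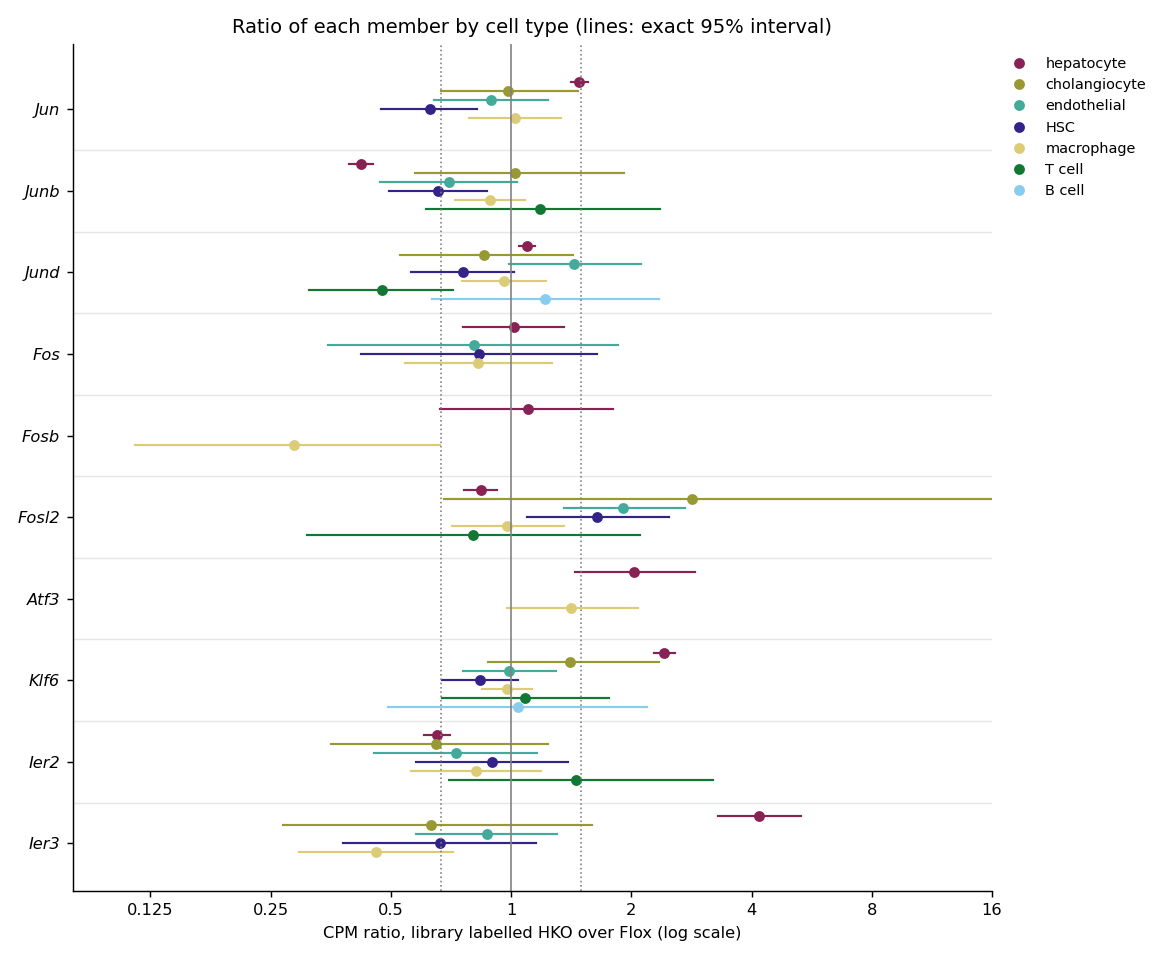
Ratio of CPM in the library labelled HKO over that labelled Flox (x axis, log scale) for each member (rows) in each type where it had at least 20 UMIs; points are ratios, lines exact 95% intervals (the line of *Fosl2* in cholangiocytes runs on beyond the axis), the solid line marks 1 and the dotted lines 1.5-fold. The hepatocyte points of *Klf6* and *Ier3* lie to the right of the other types, and that of *Junb* to the left.

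*Jun* (chr4:95049034-95052222, minus strand; GRCm38, GENCODE M21), a single-exon gene, encodes the subunit that JNK phosphorylates. In hepatocytes it was at 75.2 CPM (72.7 to 77.7) for the label Flox and 111 CPM (108 to 115) for the label HKO. The ratio was 1.48 (1.41 to 1.56), just under the limit. In HSCs the order was turned, with 82.1 and 51.4 CPM and a ratio of 0.625 (0.473 to 0.824), which came within the limit when doublets were kept (log2 ratio -0.55). Cholangiocytes had the highest level of *Jun* in both libraries, 144 and 141 CPM, and did not differ between them beyond counting error (ratio 0.981, 0.668 to 1.47). Macrophages were at 74.4 and 75.9 CPM and endothelial cells at 66.6 and 59.3 CPM, also with intervals of the ratio that held 1. T cells had 1 and 4 UMIs, or 5.87 CPM (0.149 to 32.7) and 17.1 CPM (4.66 to 43.8), the lowest level of the 7 types in both libraries.

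*Junb* (chr8:84974484-84978718, minus strand), which encodes a subunit that often restrains JUN in proliferating cells, had the lowest hepatocyte ratio of the group. Hepatocytes held 4004 and 1008 UMIs, or 86.6 CPM (83.9 to 89.3) and 36.4 CPM (34.2 to 38.7), with a ratio of 0.421 (0.392 to 0.451). *Junb* was also just past the limit in HSCs, at 76.4 and 50.2 CPM (ratio 0.658, 0.495 to 0.872). That call was lost with TMM factors (log2 ratio -0.55), with *Malat1* and mitochondrial genes left out of the total (-0.55), with doublets kept (-0.46) and with a pseudocount of 10 CPM (-0.52). In endothelial cells it was at 52.7 and 36.8 CPM, with a ratio of 0.697 (0.469 to 1.03). Macrophages, the type with the highest level in both libraries, were at 138 and 122 CPM, with a ratio of 0.885 (0.726 to 1.08) whose interval held 1. The ratio in macrophages was 2.10 (1.70 to 2.60) times that in hepatocytes, and in HSCs 1.56 (1.17 to 2.09) times. The interval of this quotient lay above 1 in all 5 types measured beside hepatocytes. Hepatocytes were the fourth of the 7 types by level in the library labelled Flox. In the one labelled HKO they were last, and could not be told from endothelial cells by counting error.

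*Jund* (chr8:70698949-70700616, plus strand), the subunit that most cells hold at a steady level, stayed within the limit in all types but T cells. Hepatocytes were at 99.6 and 109.5 CPM, with a ratio of 1.10 (1.05 to 1.15). Its highest levels were in lymphocytes, 369.8 and 175 CPM in T cells and 244 and 296 CPM in B cells. The T cells gave the only *Jund* value past the limit, with a ratio of 0.474 (0.312 to 0.714) from 63 and 41 UMIs. In HSCs it was at 64.9 and 49.1 CPM (ratio 0.757, 0.562 to 1.02) and in endothelial cells at 40.6 and 58.5 CPM (ratio 1.44, 0.991 to 2.12), neither past counting error.

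*Fos* and *Fosb* were lower in hepatocytes than in macrophages. *Fos* (chr12:85473890-85477273, plus strand), the prototype of the early response genes, was at 2.81 and 2.85 CPM in hepatocytes (ratio 1.02, 0.758 to 1.35) and at 33.1 and 27.4 CPM in macrophages (ratio 0.827, 0.543 to 1.27). HSCs (12.7 and 10.6 CPM) and endothelial cells (12.1 and 9.75 CPM) lay between and did not differ from each other beyond counting error. In T cells no UMI of *Fos* was found in either library, where a limit of 3 UMIs allows up to 17.6 and 12.8 CPM. *Fosb* (chr7:19302696-19310051, minus strand), whose product is close to FOS, was at 0.951 and 1.05 CPM in hepatocytes, and at 15.4 and 4.41 CPM in macrophages from 19 and 9 UMIs, with a ratio of 0.287 (0.114 to 0.665). The macrophage value rested on few nuclei, as described below.

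*Fosl2* (chr5:32135801-32157842, plus strand), which encodes FRA-2, a subunit linked to fibrosis, went the other way in the lining and stromal cells than in hepatocytes. Endothelial cells were at 43.2 CPM (32.1 to 57.0) and 82.5 CPM (67.8 to 99.5), with a ratio of 1.91 (1.36 to 2.72), and had the highest *Fosl2* level of the types in the library labelled HKO. HSCs were at 24.8 and 40.8 CPM, with a ratio of 1.64 (1.10 to 2.49). Cholangiocytes also passed the limit, at 7.99 and 22.7 CPM, but from 2 and 18 UMIs (ratio 2.84, 0.679 to 25.2). Hepatocytes were at 28.4 and 23.9 CPM, slightly lower in the library labelled HKO (ratio 0.841, 0.764 to 0.924). Relative to the hepatocyte ratio, that of endothelial cells was 2.27 (1.59 to 3.28) times as large and that of HSCs 1.95 (1.29 to 2.99) times. Macrophages were level, at 52.5 and 51.4 CPM.

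*Atf3* (chr1:191170296-191218039, minus strand), a stress-induced partner of JUN, had its highest level in macrophages, at 34.0 and 48.0 CPM (ratio 1.41, 0.975 to 2.08). In hepatocytes it reached 1.38 and 2.82 CPM from 64 and 78 UMIs, with a ratio of 2.04 (1.44 to 2.88). In the remaining types it had 0 to 7 UMIs per library.

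*Klf6* (chr13:5861482-5870394, plus strand) encodes a zinc finger factor that binds GC boxes and is induced in injured liver. Hepatocytes held 1676 and 2428 UMIs, or 36.2 CPM (34.5 to 38.02) and 87.7 CPM (84.3 to 91.3), with a ratio of 2.42 (2.27 to 2.58). No other type was past the limit. Macrophages, with the highest level, were at 260.3 and 254 CPM (ratio 0.976, 0.848 to 1.13), endothelial cells at 91.6 and 90.8 CPM (ratio 0.991, 0.757 to 1.30) and HSCs at 110.1 and 92.1 CPM (ratio 0.836, 0.672 to 1.04). In T cells it was at 182 and 197 CPM, in B cells at 207 and 216 CPM and in cholangiocytes at 87.9 and 123 CPM, where the ratio was 1.404 (0.877 to 2.34). The ratio in each of the 6 other types was 0.346 to 0.580 times that in hepatocytes, and all 6 intervals lay below 1. Hepatocytes had the lowest *Klf6* of the 7 types in the library labelled Flox, well apart from the next type. In the library labelled HKO they were still last, but could not be told from endothelial cells or HSCs by counting error.

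*Ier2* (chr8:84661331-84662852, minus strand), an early response gene with a nuclear product, was lower in hepatocytes, at 51.2 CPM (49.2 to 53.3) and 33.5 CPM (31.3 to 35.7), with a ratio of 0.653 (0.605 to 0.705), just past the limit. Cholangiocytes had nearly the same ratio from few UMIs, 0.649 (0.354 to 1.24). Endothelial cells (0.727, 0.453 to 1.16), macrophages (0.815, 0.561 to 1.19) and HSCs (0.897, 0.579 to 1.39) had ratios below 1 with intervals that held 1, and T cells alone had one above it (1.46, 0.701 to 3.20). Against the hepatocyte ratio, those of cholangiocytes, endothelial cells, macrophages and HSCs were 0.993 (0.538 to 1.90), 1.11 (0.689 to 1.79), 1.25 (0.852 to 1.84) and 1.37 (0.879 to 2.14) times as large, with intervals that held 1. That of T cells was 2.23 (1.07 to 4.91) times as large, with an interval above 1.

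*Ier3* (chr17:35821684-35822923, plus strand), which encodes a factor that prolongs ERK signalling and modulates cell death, had the largest hepatocyte ratio of the group. Hepatocytes were at 2.14 CPM (1.74 to 2.61) and 8.93 CPM (7.85 to 10.1), on 99 and 247 UMIs, with a ratio of 4.17 (3.29 to 5.32). Macrophages were lower, at 40.4 and 18.6 CPM, with a ratio of 0.460 (0.294 to 0.716). HSCs (21.0 and 13.96 CPM, ratio 0.664, 0.379 to 1.15) and cholangiocytes (35.9 and 22.7 CPM, ratio 0.630, 0.269 to 1.59) passed the limit downwards with intervals that held 1, and the HSC value came within it with TMM factors (log2 ratio -0.53) and turned after thinning (0.21). Endothelial cells, the type with the most *Ier3* in both libraries, were at 44.9 and 39.0 CPM (ratio 0.868, 0.580 to 1.30). Against the hepatocyte ratio that of macrophages was 0.111 (0.0662 to 0.184) times as large. The hepatocyte level stayed below that of endothelial cells even in the library labelled HKO.

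**Figure D2:**
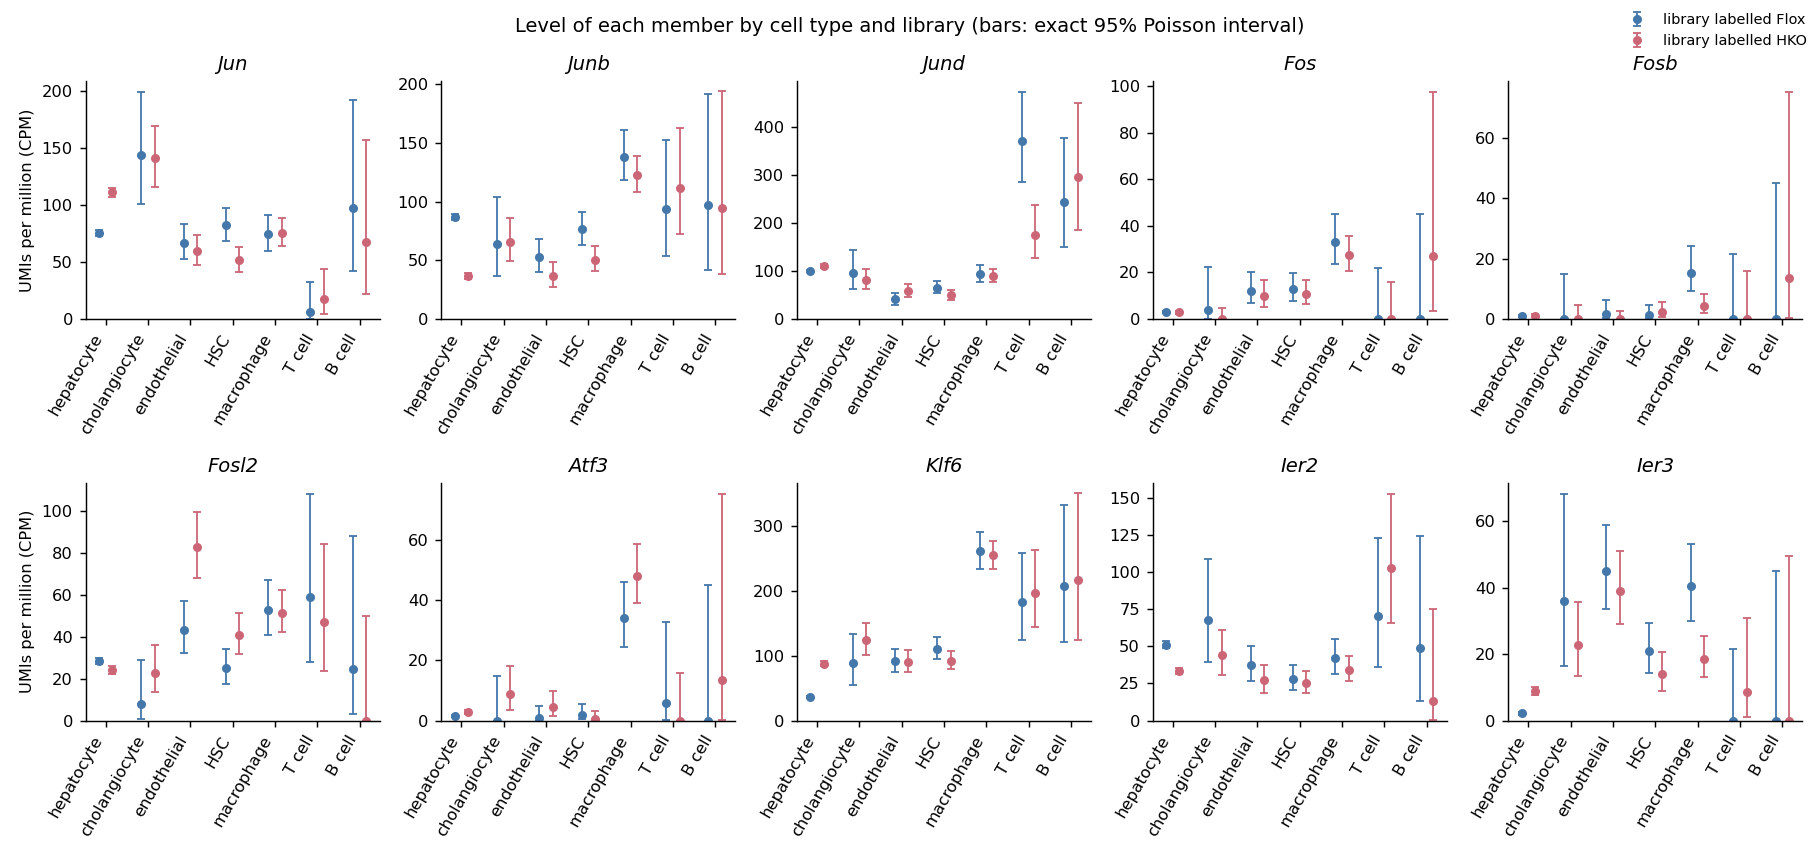
Level of each member (panels; y axis, CPM, linear from 0, each panel with its own range) in the 7 types (x axis), in the library labelled Flox (blue) and the one labelled HKO (red); bars are exact 95% Poisson intervals. *Klf6* was lowest in hepatocytes in both libraries, *Fos*, *Fosb* and *Atf3* had their highest levels in macrophages in the library labelled Flox, and *Jund* was highest in lymphocytes.

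By type, the members past the limit differed. In macrophages all 10 members were measured, 0 were past the limit higher (7.52% of all genes measured there) and 2 lower, *Fosb* and *Ier3* (15.7%). In HSCs 1 of 8 was higher, *Fosl2* (8.34% of all genes), and 3 were lower, *Jun*, *Junb* and *Ier3* (15%). In endothelial cells 1 of 8 was higher, *Fosl2* (8.22%), and none lower (12.8%). In cholangiocytes 1 of 7 was higher (15.3%) and 2 lower, *Ier2* and *Ier3* (16.1%). In T cells 1 of 5 was lower, *Jund* (16.3%), with none higher (10.2%), and in B cells neither of the 2 measured members passed (13.4% and 19.1% of all genes). The median log2 ratio of the members was -0.33 in HSCs, -0.19 in endothelial cells and -0.12 in macrophages, beside -0.06, -0.05 and -0.10 over all genes.

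Within hepatocytes the members were followed along the lobule, because hepatocytes near the portal vein (zone 1) and near the central vein (zone 3) differ in function. The nuclei of each library were ranked by the share of UMIs from 5 zone 3 markers less that from 5 zone 1 markers, each divided by its mean in the library, and split into 3 groups of equal size. These groups are ranges of a score, not types, and 333 and 311 nuclei lay within 0.1 SD of the lower cut and 936 and 840 of the upper one. The middle groups were not alike, with zone 1 markers at 217 and 104.7 CPM and zone 3 markers at 1231 and 744 CPM, and the part of this in the ratios by group was not tested. In the library labelled Flox *Junb* was graded, at 114 CPM on the zone 1 side, 91.2 in the middle and 52.7 on the zone 3 side. The library labelled HKO had a nearly flat level, at 37.7, 37.4 and 33.9 CPM. The ratio of *Junb* was therefore 0.330 (0.295 to 0.370) on the zone 1 side, 0.410 (0.364 to 0.461) in the middle and 0.643 (0.559 to 0.737) on the zone 3 side.

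*Klf6* had its highest level of the library labelled HKO in the middle group, 40.9 and 134 CPM, with a ratio of 3.29 (2.99 to 3.61). It was 25.9 and 54.8 CPM on the zone 1 side (ratio 2.11, 1.85 to 2.42) and 41.1 and 75.5 CPM on the zone 3 side (ratio 1.84, 1.64 to 2.06). *Jun* was past the limit on the zone 1 side, at 43.3 and 73.7 CPM (ratio 1.70, 1.53 to 1.90), and in the middle, at 87.4 and 145 CPM (ratio 1.66, 1.55 to 1.79). On the zone 3 side *Jun* was within it, at 92.7 and 118 CPM (ratio 1.27, 1.17 to 1.38). So the hepatocyte ratio of *Jun*, just under the limit over all nuclei, combined groups on either side of it.

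*Ier2*, by contrast, kept its ratio in all 3 groups, at 0.638, 0.622 and 0.672, and was graded towards zone 1 in both libraries. *Ier3* was higher in each group, with ratios of 5.35 (2.92 to 10.47), 3.57 (2.50 to 5.16) and 4.78 (3.24 to 7.19), and in the library labelled HKO its level went up towards zone 3, from 5.17 to 12.2 CPM. *Jund* and *Fosl2* stayed within the limit in all 3 groups.

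**Figure D3:**
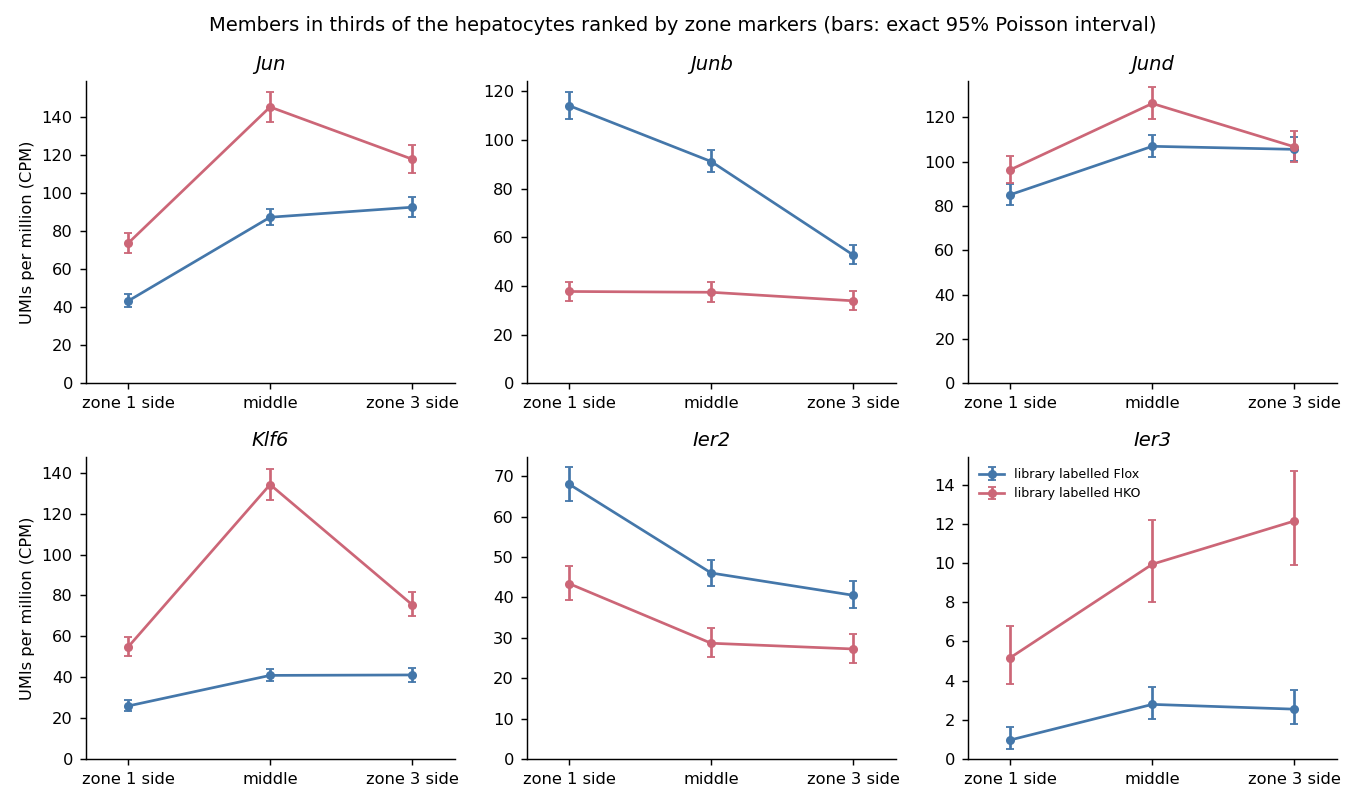
Level of 6 members (panels; y axis, CPM, linear from 0) in 3 equal groups of hepatocyte nuclei ranked by zone markers (x axis), in the library labelled Flox (blue) and the one labelled HKO (red); bars are exact 95% Poisson intervals. *Junb* was lower towards zone 3 in the library labelled Flox and stayed near 37.4 CPM in the one labelled HKO, where *Klf6* peaked in the middle group at 134 CPM.

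The share of nuclei that carried a member's UMI was compared after each nucleus had been thinned to 1000 UMIs, which left out 16 and 21 hepatocyte nuclei. A larger part was left out in other types, for example 72 and 251 T cell nuclei, 17 and 314 macrophage nuclei and 22 and 189 HSC nuclei. Thinned values of those types describe their deeper nuclei, unequally between the libraries. In hepatocytes *Klf6* was detected in 3.20% (2.77 to 3.69) of nuclei labelled Flox and 7.46% (6.70 to 8.27) in the other, and without thinning in 1189 of 5822 and 1342 of 4474 nuclei. *Junb* was detected in 7.66% (6.99 to 8.38) and 3.57% (3.05 to 4.16), against 38.8% and 16.8% without thinning. For *Ier3* the shares were 0.155% (0.0709 to 0.294) and 1.08% (0.796 to 1.43), against 1.22% and 4.403% without thinning. The shares of these 3 genes differed in the same direction as their levels. *Jun* was detected in 6.89% (6.25 to 7.57) and 9.34% (8.503 to 10.2) of hepatocytes, without thinning in 31.4% and 35.7%, and in T cells, whose median depths were 1048 and 696 UMIs, in 0 of 85 and 0 of 48 thinned nuclei, where a limit of 3 nuclei allows shares of up to 3.53% and 6.25%.

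The genes differed in how evenly nuclei shared their UMIs. In hepatocytes the UMIs of *Jun*, *Junb*, *Jund*, *Fosl2*, *Klf6* and *Ier2* were spread over 582 to 2753 nuclei per library, and the 10 nuclei with the most of them held 2.03% to 7.08%. *Fosb* was the opposite. Of its 44 hepatocyte UMIs in the library labelled Flox, 36 lay in 1 nucleus and the rest in 8 others, and in the library labelled HKO 1 nucleus held 17 of 29. For *Atf3*, 1 nucleus of the library labelled Flox held 32 of 64 UMIs, while the most in the library labelled HKO was 8 of 78. For *Fos*, 1 nucleus held 31 of 130 in the library labelled Flox.

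Leaving out the 10 nuclei with the most UMIs of each gene in each library, a step chosen after this had been seen, moved the hepatocyte ratio of *Atf3* from 2.04 to 3.80 (2.26 to 6.59). *Fosb* had UMIs in only 9 and 8 hepatocyte nuclei, so none could remain. The nuclei left out held unequal parts of the UMIs, 65.6% and 35.9% for *Atf3* and 34.3% and 13.8% for *Ier3*. More was thus taken from the library labelled Flox, and the rise of both ratios follows from that. *Klf6* and *Junb* stayed at 2.41 (2.26 to 2.57) and 0.409 (0.3804 to 0.439), and *Ier3* went to 5.48 (4.13 to 7.35). In macrophages 10 of the 19 UMIs of *Fosb* in the library labelled Flox lay in 1 nucleus and all of them in 4, so that the low macrophage ratio of *Fosb* rested on those nuclei. The ratio of *Ier3* in macrophages was 0.439 (0.251 to 0.757) with the top nuclei left out. That of *Atf3* went from 1.41 to 2.39 (1.43 to 4.19), where the nuclei left out held 54.8% and 22.4% of its UMIs.

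**Figure D4:**
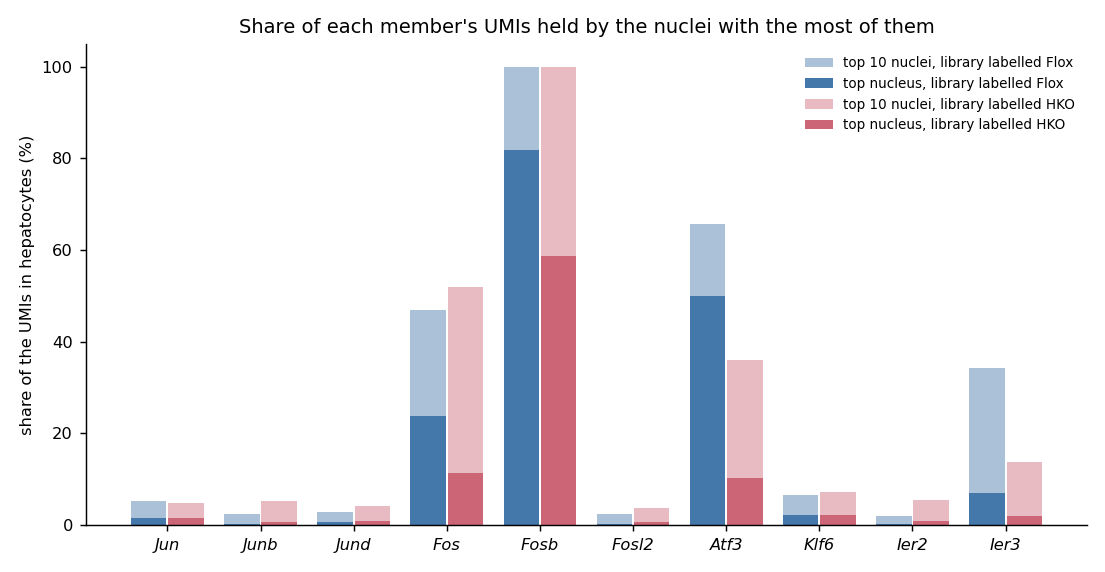
Share of each member's UMIs in hepatocytes (y axis, %) held by the single nucleus with the most of them (full colour) and by the 10 nuclei with the most (pale, drawn from 0), in the library labelled Flox (blue) and the one labelled HKO (red). All *Fosb* UMIs lay in 10 nuclei or fewer, and 1 nucleus held 50% of the *Atf3* UMIs of the library labelled Flox.

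Members were also followed within the same nuclei. In thinned hepatocyte nuclei of the library labelled HKO with a UMI of *Jun*, *Klf6* was at 175 against 74.3 CPM, with a ratio of 2.36 (1.80 to 3.06). In the library labelled Flox the same comparison gave 62.5 against 33.1 CPM, with a ratio of 1.89 (1.19 to 2.88). With a UMI of *Junb*, *Klf6* was at 195 against 79.6 CPM, with a ratio of 2.45 (1.64 to 3.54) in the library labelled HKO, and in the library labelled Flox at 42.7 against 34.5 CPM, with a ratio of 1.24 (0.728 to 1.99), an interval that held 1. Of 36 ordered pairs with enough UMIs in the library labelled HKO, 31 had a ratio above 1, with a median of 1.60, and 14 an interval above 1. Of 30 in the library labelled Flox, 21 had a ratio above 1, with a median of 1.07, and 5 an interval above 1. Most gene pairs count in both orders, and those with *Ier3* entered in the library labelled HKO only. The sets of pairs thus differ between the libraries, and no such count was made over other genes. Nuclei with 3 or more members remained rare, 0.568% and 0.831% of thinned hepatocytes and 2.89% and 3.06% of thinned macrophages. The part of zone in these pairs was not tested.

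The study follows disease-associated hepatocytes (daHep), for which *Klf6* and *Jun* were among its markers. The members were therefore set against its other daHep markers, *Nrg1*, *Anxa2*, *Gdf15* and *Sox4*. At least 1 UMI of these was found in 685 of 5806 thinned hepatocytes of the library labelled Flox, and in 658 of 4453 from the other library. In the library labelled Flox, *Klf6* in nuclei with and without such a UMI was at 77.4 against 29.5 CPM, with a ratio of 2.62 (1.88 to 3.61). The library labelled HKO had it at 196 against 64.3 CPM, with a ratio of 3.05 (2.44 to 3.79). Nuclei without these UMIs still differed between the libraries, at 29.5 and 64.3 CPM. *Junb* was higher in the marker nuclei of both libraries, at 112 against 80.5 CPM, with a ratio of 1.397 (1.08 to 1.79), and at 54.7 against 35.6 CPM, with a ratio of 1.54 (1.03 to 2.24). *Jun* was at 93.4 against 74.2 CPM, with a ratio of 1.26 (0.951 to 1.64), and at 146 against 102 CPM, with a ratio of 1.43 (1.13 to 1.79), so that its interval held 1 in the library labelled Flox only. *Jund* had ratios of 1.21 (0.946 to 1.52) and 1.76 (1.42 to 2.17). From 2 to 16 UMIs on each side, *Atf3* had ratios of 22.4 (4.01 to 227) and 4.04 (1.30 to 11.7), and *Fos* 0.934 (0.104 to 3.97) and 4.33 (1.24 to 14.2). The intervals of *Fosl2*, *Ier2* and *Ier3* held 1 in both libraries, as did that of *Fosb* in the library labelled HKO, the only one with UMIs of it. *Gdf15* supplied most of the marker nuclei in the library labelled Flox. Without it, a step chosen with its level in hepatocytes known, 131 and 388 nuclei remained, and the ratio of *Klf6* was 3.44 and 2.64. That of *Jun* in the library labelled HKO then was 1.07 (0.772 to 1.46), with an interval that held 1. *Fos* had 0 UMIs in the 131 and 388 nuclei that remained. *Atf3* had 1 and 5 UMIs there, with ratios of 6.19 (0.137 to 48.2) and 4.37. Its interval held 1 in the library labelled Flox only. The ratio of *Ier3* in the library labelled Flox became 10.8 (1.12 to 54.3), from 2 and 8 UMIs. In the library labelled HKO the interval of *Ier3* still held 1.

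In macrophages the nuclei were split by whether they had more UMIs of 6 Kupffer cell markers or of 6 markers of *Trem2*+ macrophages. There were 449 and 803 nuclei on the Kupffer side, and 54 and 429 on the *Trem2* side, with 33 and 193 nuclei with equal numbers. On the Kupffer side *Junb* was at 144 and 98.9 CPM, with a ratio of 0.688 (0.537 to 0.879), and *Klf6* at 267 and 249.6 CPM, with a ratio of 0.936 (0.793 to 1.10). On the *Trem2* side *Junb* was at 91.7 and 152 CPM from 11 and 94 UMIs (ratio 1.66, 0.887 to 3.44). *Atf3* was higher on the *Trem2* side in both libraries, at 108 and 100.5 CPM against 27.2 and 21.4 CPM on the Kupffer side, and within each side its ratio was 0.927 (0.504 to 1.84) and 0.786 (0.445 to 1.38). *Ier3* was at 37.6 and 23.1 CPM on the Kupffer side (ratio 0.614, 0.365 to 1.02), and had 6 and 7 UMIs on the other.

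Other genes of the pathway were set beside the members in hepatocytes. Of 21 measured early response genes outside the group, 12 were past 1.5-fold higher and 1 lower, beside 11.8% and 13.4% of all genes measured there, with a median log2 ratio of 0.71. *Klf4* (0.432 and 1.59 CPM, ratio 3.68) and the nuclear receptor gene *Nr4a1* (1.04 and 3.11 CPM, ratio 2.99) had the highest ratios, and *Socs3*, a feedback inhibitor of STAT3 signalling (28.3 and 10.8 CPM, ratio 0.381), and *Klf2* (2.55 and 1.99 CPM, ratio 0.779) the lowest. In macrophages 4 of 21 were higher and 4 lower (7.52% and 15.7% of all genes), in HSCs 5 and 4 of 20 (8.34% and 15%), and in endothelial cells 5 and 3 of 20 (8.22% and 12.8%). Of 10 measured textbook AP-1 targets, 5 were higher and none lower in hepatocytes (11.8% and 13.4% of all genes). Log2 of their median ratio was 1.23, a point between the genes past the limit and those within it. *Areg*, which encodes an EGF receptor ligand (0.368 and 2.20 CPM, ratio 5.996), was among the higher ones, and *Krt18* (70.3 and 62.8 CPM, ratio 0.894) and *Hbegf* (0.822 and 1.01 CPM, ratio 1.23) had the lowest ratios. The lists were drawn up with earlier results of these data known, and their counts describe these 2 libraries only.

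Beside the counts in hepatocytes for the next 3 lists stand 11.8% of all genes measured there as higher and 13.4% as lower. Of 12 measured heat shock genes, which often rise with tissue handling, 1 was higher in hepatocytes (*Hspa8*, 179 and 281 CPM, ratio 1.57) and none lower, and log2 of their median ratio was 0.17. The strongly inducible *Hspa1b* followed (3.91 and 5.71 CPM, ratio 1.46), and *Hspd1* (123 and 109.6 CPM, ratio 0.892) and *Hspe1* (115 and 112 CPM, ratio 0.980) were lowest. In the other types 0 or 1 of them was higher and 0 to 3 were lower, where 7.52% to 15.3% of all genes were higher and 12.8% to 19.1% lower. All 20 kinases and factors upstream of AP-1 were within the limit in hepatocytes, and log2 of their median ratio was 0.19. Their ratios ran from 0.813 for *Elk3* and 0.825 for *Map2k2* to 1.403 for *Map3k5* and 1.42 for *Map3k1*. Transcripts say nothing about the activity of these kinases. Of 12 measured bZIP partners 1 was higher, *Maf* (69.9 and 105.3 CPM, ratio 1.51), followed by *Atf5* (80.7 and 118 CPM, ratio 1.47), and 1 lower, *Cebpd* (67.3 and 44.3 CPM, ratio 0.659), followed by *Cebpb* (747 and 617 CPM, ratio 0.825).

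**Figure D5:**
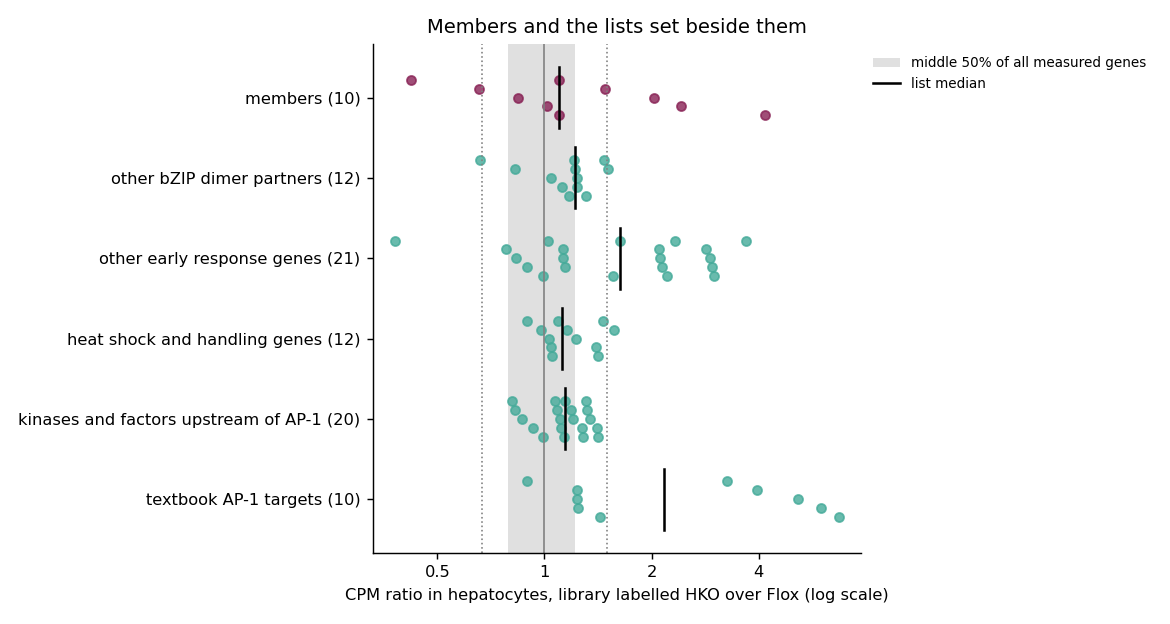
Ratio of CPM in hepatocytes, library labelled HKO over that labelled Flox (x axis, log scale), of each measured gene (points) in the members and the 5 lists set beside them (rows, number measured in brackets). Black bars are medians of the log2 ratios of a list, which for an even number of genes can differ from log2 of the median ratio. The grey band holds the middle 50% of all measured genes, and dotted lines mark 1.5-fold. The early response genes and AP-1 targets reach far beyond the right dotted line, while the upstream kinases and factors stay between the dotted lines.

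The genes with the pattern most like each member were sought over the 14 sums of 7 types and 2 libraries, as Pearson's r of log2(CPM + 1) among 9514 genes. The 2 sums of a type share its markers and the 7 sums of a library share its preparation, so r is a description. For *Klf6* they were *Fam49b* (r = 0.96), *Actr3* (r = 0.92) and *Lnpep* (r = 0.92). For *Ier3* they were *Tmem51* (r = 0.96), *Intu* (r = 0.96) and *Cpd* (r = 0.96), and for *Jun* *Zc3h12c* (r = 0.94), *Nmnat1* (r = 0.89) and *Bhlhe41* (r = 0.89). *Junb* had weaker matches, *Celf2* (r = 0.84), *Fth1* (r = 0.82) and *Eloa* (r = 0.82). *Jund* was most like *Nop10* (r = 0.94), *Nup210* (r = 0.93) and *Zfp91* (r = 0.93), *Fosl2* most like *Dpf2* (r = 0.96), *Gm29170* (r = 0.96) and *Api5* (r = 0.96), and *Ier2* most like *Ift52* (r = 0.87), *Hdhd5* (r = 0.86) and *Tdg* (r = 0.86). *Atf3*, with 20 UMIs in 4 sums only, was most like *Gpnmb* (r = 0.90), a marker of *Trem2*+ macrophages, *Tmem170b* (r = 0.88) and *Hpgds* (r = 0.87). *Fos* was most like *Snap23* (r = 0.86), *Tlr4* (r = 0.86) and *Map7d1* (r = 0.85), and *Fosb*, with 20 UMIs in 2 sums, like *Gm44751* (r = 0.95), *Zfp385a* (r = 0.83) and *Zfp811* (r = 0.81).

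The structure of the genes bears on what nuclei can show. *Jun*, *Jund*, *Ier2* and the coding transcript of *Junb* have 1 exon, while *Fos*, *Fosl2*, *Atf3* and *Klf6* have 4 exons, *Ier3* has 2 and *Fosb* 3 to 5. Intronic reads were excluded from the counts, so unspliced transcripts of the genes with introns were counted only through their exons. In *Atf3*, exons make up 4.51% of the gene, against 47.4% in *Klf6* and 91.2% in *Ier3*. Levels were therefore compared between types and libraries for 1 gene at a time. *Jun*, *Junb*, *Jund* and *Atf3* overlap a gene on the opposite strand, and the sources used here do not state whether strand was used in counting. In hepatocytes the antisense gene *Junos*, beside *Jun*, had 112 and 97 UMIs, and *Prdx2*, beside *Junb*, was at 34.4 and 26.1 CPM, with a ratio of 0.758 (0.694 to 0.829).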

How the data were processed

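UMI counts per gene and nucleus were deposited by the authors as raw matrices, made with Cell Ranger 8.0.1 (per the submitters' processing notes) on GRCm38 with intronic reads excluded. They carried no normalization. The library labelled Flox held 9363 barcodes and 58171337 UMIs, and the one labelled HKO 10748 and 40475938. Nuclei with at least 300 genes were kept, and 701 and 920 doublets were removed with Scrublet (scanpy 1.11.5) at an expected 0.8% per 1000 barcodes. Nuclei were integrated and clustered in Seurat 5.3.0 (R 4.3.3; canonical correlation, 3000 variable features without the 10 members, 15 components, resolution 0.2). Clusters were named from marker lists by at least 3 markers with at least 10 UMIs and a CPM no less than that of the highest cluster divided by 3. A cluster stayed unnamed when a second type had 80% of its markers, except that cycling nuclei could carry those of another type. The naming rules were set with the clusters in view, and 50 nuclei per library were needed. Rebuilt names may differ from those of the study.

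UMIs were summed by type and library. Intervals are exact Poisson for CPM, conditional binomial for ratios and Clopper-Pearson for shares (scipy 1.17.1), and cover counting error only. The scripts were tested on simulated data. Alternatives were the gene minimum, doublets, TMM factors (edgeR 4.0.16), the total, types by marker UMIs, integration, thinning, the UMI minimum and a pseudocount. All 10 members were named, with the 2 highest and 2 lowest ratios of each other list in hepatocytes and 3 genes most alike per member. The value of 1 listed gene is not reported here. The members and lists were chosen with earlier results of these data known. Gene positions are from GENCODE M21 and promoters from RefSeq. The unnamed cluster (265 and 405 nuclei) and the cycling one were left out of the comparisons. The unnamed one carried dendritic cell and neutrophil markers, and its leading genes began with *Igkc*, *Igha* and *Jchain*, which plasma cells express.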

Additional observations from a re-analysis of the deposited data

Results flagged for a closer look

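*Ier3* passed 1.5-fold in opposite directions in different types. The ratio of the library labelled HKO over that labelled Flox was 4.17 in hepatocytes, against 0.460 in macrophages, 0.664 in HSCs and 0.630 in cholangiocytes. With 1 library per group, the difference between types was not tested. In HSCs the direction turned after thinning, which left out 22 and 189 HSC nuclei, and in HSCs and cholangiocytes the interval held 1.

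The members also had UMIs in 2 clusters that entered no comparison. In the cycling cluster, whose nuclei (41 and 76) also carried all 9 macrophage markers, they summed to 608 CPM in the library labelled Flox and 529 CPM in the one labelled HKO, with *Klf6* at 216 and 222 CPM. In the unnamed cluster they summed to 918 and 593 CPM, with *Klf6* at 254 and 137 CPM. There the 8 hepatocyte markers summed to 11511 and 10544 CPM, as high as in hepatocytes.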

How the results depend on the processing

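Of 536 log2 ratios of a member in a type under an alternative, 520 stayed within the 95% interval of the reported ratio, 15 moved beyond it, and 1 ratio past 1.5-fold changed direction, that of *Ier3* in HSCs, to 0.21 after thinning to 1000 UMIs. Another 25 values, of ratios within 1.5-fold, also lay on the other side of 1. A minimum of 50 UMIs and no minimum only changed which pairs were listed. Their 40 and 50 values, counted among those that stayed, could neither move nor end a call. Of the 16 pairs past the limit, 8 stayed past it under all alternatives that gave a value: *Junb*, *Klf6* and *Ier3* in hepatocytes, *Fosb* and *Ier3* in macrophages, *Fosl2* in endothelial cells and cholangiocytes, and *Jund* in T cells. *Fosb* in macrophages (19 and 9 UMIs) and *Fosl2* in cholangiocytes (2 and 18 UMIs) had values under only 8 and 9 alternatives, against 12 for the hepatocyte pairs. *Fosb* in macrophages had none with doublets kept, or without its top 10 nuclei, where 0 UMIs remained. Their calls were thus less tried than the others. The call was ended for *Ier3* in HSCs by 7 of its alternatives, for *Junb* in HSCs and *Ier2* in cholangiocytes by 4 each, for *Ier3* in cholangiocytes by 3, for *Ier2* in hepatocytes by 2, and for *Jun* and *Fosl2* in HSCs and *Atf3* in hepatocytes by 1 each. The numbers of members past 1.5-fold in hepatocytes, 3 higher and 2 lower, came out the same under the alternatives counted except thinning, where 1 was lower, since *Ier2* had a log2 ratio of -0.58. With a pseudocount of 10 CPM, for which no count was made, *Ier2* and *Atf3* were at ratios of 0.710 and 1.13, within the limit. Over all pairs of member and type, keeping doublets gave 8 higher and 5 lower among 40 pairs measured. The macrophage cluster then had no name, which removed 2 of the lower pairs, and *Jun*, *Junb* and *Ier3* in HSCs and *Ier3* in cholangiocytes came within the limit, while *Ier2* in endothelial cells passed it. With no minimum of UMIs, 14 pairs were higher and 16 lower among 66, and these include pairs with 0 UMIs in 1 library. Shares over all genes were computed for the reported settings only, so these counts have none beside them. In hepatocytes *Klf6* ran from 2.11 to 2.44, *Junb* from 0.409 to 0.481, *Jun* from 1.41 to 1.49, *Ier3* from 1.56 with a pseudocount of 10 CPM to 6.52 after thinning, and *Atf3* up to 3.80 without the 10 nuclei that held the most UMIs. Depth limits T cells, B cells and cholangiocytes most, where 3 UMIs correspond to 3.78 to 40.4 CPM. No paired analysis was possible because there was 1 library per group, and for the same reason no library could be left out.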
